A study of Mus musculus with 12 samples.

Results

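RAW264.7 cells are an established line of mouse macrophages derived from a BALB/c animal, and LPS is a cell wall component of Gram-negative bacteria. The data described here are the 6 RNAseq libraries, of 12 in the series, from RAW264.7 cells given siRNA against SF3a1: 3 libraries without LPS and 3 exposed to 20 ng/ml LPS for 4 hours, in both cases after 24 hours of siRNA. They were chosen by their sample labels alone, and the 6 libraries from cells given non-targeting control siRNA (3 without LPS and 3 with the same LPS exposure) serve as the comparison. The question addressed is which genes still responded to LPS when SF3a1 was depleted, and how strongly. All 12 samples were transfected with an siRNA by nucleofection, so no group was left untransfected, and 1 cell line was used. Per the study methods, siRNA treatment and exposure were each done 3 times, so that p-values measure the spread between replicates of this line. In a fit without a replicate block, that spread includes deviations that same-numbered libraries share. With SF3a1 siRNA, 27789833, 17182329 and 12746019 reads were counted on genes in replicates 1, 2 and 3 without LPS, and 36506558, 17174058 and 21830520 with LPS. With control siRNA, the totals ran from 20659511 to 40840082 without LPS and from 13021502 to 41091887 with LPS.

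SF3a1 is a subunit of the SF3a complex, part of the U2 small nuclear ribonucleoprotein that recognises the branch point of introns. LPS is delivered by CD14 to the receptor TLR4, which signals through the adaptors MyD88 and TRIF. The MyD88 arm activates NF-κB and MAP kinases and with them cytokine, chemokine and feedback genes. The TRIF arm activates IRF3 and production of interferon-β, which then acts back on the cell to induce interferon-stimulated genes. Activated macrophages are also known to leave the cell cycle.

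Levels are given as CPM, reads of a gene relative to the reads counted on genes (counts per 1e6, TMM-scaled), and values for single libraries are in the order of replicates 1, 2 and 3. Sf3a1 itself had 27.1, 27.5 and 32.1 CPM with SF3a1 siRNA without LPS and 30.3, 26.7 and 45 CPM with LPS. With control siRNA it had 173, 216 and 185 CPM without LPS and 150.02, 194 and 157 CPM with LPS. All 6 libraries with SF3a1 siRNA were below all 6 with control siRNA, at 15.1% of the control mean without LPS and 20.3% with LPS (exact two-sided permutation test, p = 0.1 in each case, the smallest that 3 libraries against 3 allow). LPS did not change Sf3a1 detectably in the depleted cells (log2 fold change 0.24 ± 0.19 SE, adjusted p = 0.615), and the groups overlapped.

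The cells carried macrophage transcripts throughout. Lyz2, which encodes lysozyme, had 7134, 8387 and 7060.2 CPM without LPS and 6316, 9895 and 6249 CPM with LPS in the depleted cells. Summed over the 12 macrophage markers, the level was 14737, 15026 and 13800.2 CPM without LPS and 14914, 17799 and 13555 CPM with LPS, so that the groups overlapped. None of the 6 B cell, 8 T and NK cell or 7 epithelial and endothelial markers had enough counts to be tested, and in any of the 12 libraries these lists summed to at most 0.763, 0.193 and 1.91 CPM. Of the neutrophil and fibroblast markers 1 of 8 each was tested, S100a8 and Pdgfrb, and neither was called (log2 fold changes 1.14 ± 1.08 and 0.18 ± 0.62). The summed level of 8 osteoclast markers was higher with SF3a1 siRNA on either side of the LPS comparison. It was 3233, 2077 and 2499 CPM without LPS and 3295, 1816 and 2774 CPM with LPS, against 765 to 979 CPM with control siRNA. Most of this sum came from 1 gene. Over the 6 libraries with SF3a1 siRNA, Nfatc1 had 247443 counts and no other marker more than 78628. How many markers were higher was not counted. The 13 mitochondrially encoded mRNAs summed to 10350.2, 6727 and 4862 CPM without LPS and 10354, 8351 and 5513 CPM with LPS, against 3030 to 4260 CPM with control siRNA. The part of either in the results below was not tested. In bulk libraries, fewer cells of a type and less RNA per cell cannot be told apart. One library, replicate 1 without LPS, stood apart. There 27.2% of reads matched no annotated gene feature, against 18.2 to 21.6% in the other 5 libraries with SF3a1 siRNA. Whether these reads lay in introns or between genes was not tested.

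SF3a1-depleted macrophages still mounted a broad response to LPS. Genes for interleukins, chemokines, nitric oxide synthase and interferon-induced proteins were among those that rose most. Of the 14983 genes with enough counts to be tested, 1598 (10.7%) changed with LPS at a false discovery rate of 0.1 (edgeR quasi-likelihood test with Benjamini-Hochberg adjustment, used for every adjusted p here). Of these, 989 rose (6.6% of genes tested) and 609 fell (4.06%). At 4-fold or more, 385 of the called genes rose and 36 fell. In 1564 of the called genes all 3 libraries with LPS lay on the same side of all 3 without, which held for 24.8% of all genes tested. With control siRNA, by the same test, 4809 genes (32.1%) changed, of which 2061 rose and 2748 fell (with scaling by library totals 1596 and 4187).

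Replicates with the same number deviated together, and a fit with the replicate number as a block called 3115 genes in the depleted cells, 1694 higher and 1421 lower. Scaling by library totals in place of TMM shifted the median log2 fold change of all genes to -0.12 from 0.01 and called 2047, of which 40.1% were higher, against 61.9% in the fit above. Without replicate 1 without LPS, the library that stood apart, 1050 genes were called, 745 higher and 305 lower. Leaving out replicate 2 of that group gave 1058, 688 higher and 370 lower. Leaving out replicate 2 with LPS gave 1122, 839 higher and 283 lower, so that the falls depended more on single libraries than the rises.

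Most genes called in the depleted cells were also called with control siRNA, while most genes called with control siRNA were not called in the depleted cells. Of the 1598 genes that changed in the depleted cells, 1429 (89.4%) also changed the same way with control siRNA, which is 29.7% of the genes called there. Called in opposite directions were 6, and among genes with a called difference the estimates had opposite signs in 101. The remaining 163 were called in the depleted cells alone, and in 8 of these the difference between the responses was itself called. Among genes called with control siRNA and not in the depleted cells, 3374 in number, that difference was called in 253.

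**Figure D1:**
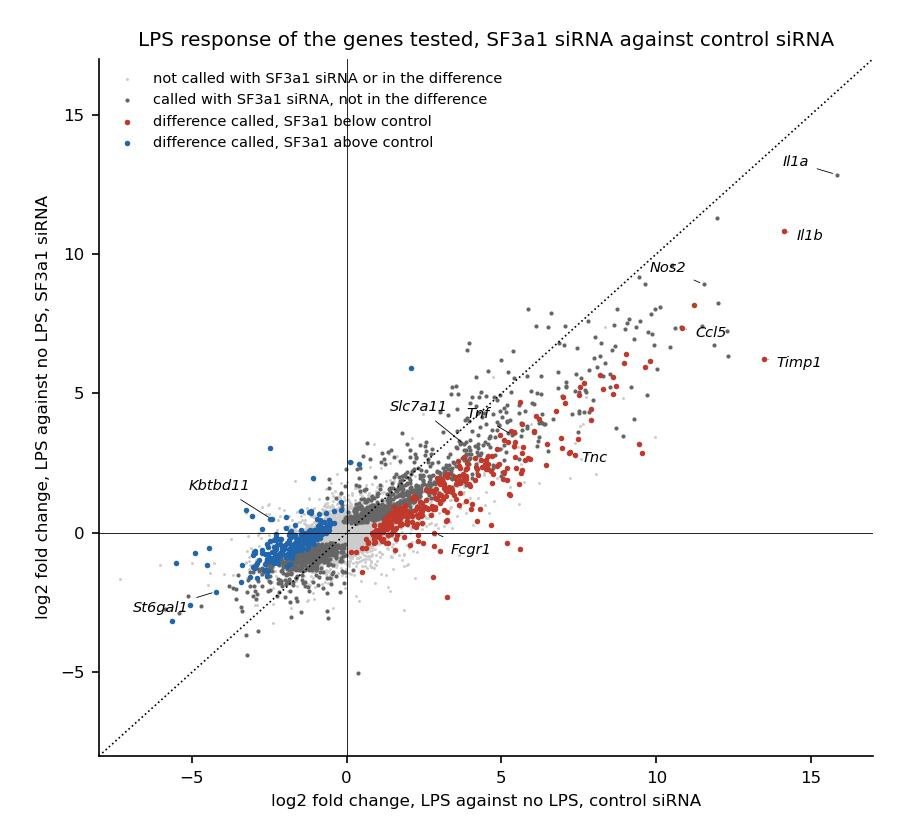
Response to LPS of the 14983 genes tested, as the log2 fold change with control siRNA (horizontal axis) and with SF3a1 siRNA (vertical axis); each point is 1 gene, the dotted line marks equal responses, and colours mark the genes whose response differed between the siRNAs. The 290 genes in red lie below the line and the 230 in blue above it, with the red points mostly at right among induced genes and the blue points mostly at left among repressed genes.

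For the counts of list members given from here on, the shares over all genes tested in the depleted cells were 6.6% higher and 4.06% lower. For the difference between the siRNAs they were 1.54% higher and 1.94% lower. The receptor TLR4 and its signalling chain carry the LPS signal into the cell. Of 32 tested TLR4 receptors, adaptors and kinases, 7 rose and 3 fell, with a median log2 fold change of 0.18, against 0.31 with control siRNA and 0.01 for all genes tested in the depleted cells. Cd14, the co-receptor that hands LPS to TLR4, rose from 963, 613 and 710.1 CPM to 2339, 2017 and 1576 CPM (log2 fold change 1.38 ± 0.25, adjusted p = 0.0036). Myd88, the adaptor, went from 185 ± 6.63 to 287 ± 70.9 CPM (mean ± SD, n = 3, adjusted p = 0.0479). These rises were estimated at 1.38 and 0.63 on the log2 scale, against 2.35 and 1.41 with control siRNA, and in neither gene was the difference called (adjusted p = 0.205 and 0.156), while with the replicate block, a fit that pairs same-numbered libraries, both were (adjusted p = 0.0115 and 0.0113). Tlr4 itself had 56.8, 37.7 and 40.2 CPM without LPS and 38.2, 14.8 and 23.3 CPM with LPS, lower with LPS in all 3 pairs of same-numbered replicates, with overlapping groups and a fall that was not called (adjusted p = 0.168). It was called in 6 of 22 settings, the replicate block among them, with log2 fold changes from -1.24 to -0.54. The kinases Irak1 (-0.31 ± 0.17) and Ikbkb (-0.11 ± 0.14) and the endosomal regulator Rab7b (0.24 ± 0.27) gave log2 fold changes that did not pass the test (adjusted p = 0.346, 0.789 and 0.754). Irak2, a kinase that sustains the response, rose from 51.5 ± 9.91 to 129.8 ± 9.11 CPM (adjusted p = 2.44e-04), less than with control siRNA (log2 difference -0.85 ± 0.24, adjusted p = 0.0971). Tlr3, the receptor for double-stranded RNA, had 6.49, 10.3 and 9.15 CPM without LPS and 11.1, 9.37 and 14.9 CPM with LPS in the depleted cells, overlapping groups with no called change (adjusted p = 0.427). With control siRNA it went from 3.48, 5.63 and 5.24 to 31.8, 52.2 and 51.1 CPM, and the difference of the responses was -2.79 ± 0.39 (adjusted p = 0.00408). Ticam2, an adaptor of the TRIF arm, had the 1 called difference in the other direction (1.06 ± 0.26, adjusted p = 0.0584), with log2 fold changes of 0.47 and -0.58.

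NF-κB is the transcription factor family that LPS signalling activates. Of 12 subunits and inhibitors tested, 10 rose and 0 fell, with a median log2 fold change of 1.45, against 2.16 with control siRNA, and all 12 estimates were below those of the control. Nfkb1, the p105 precursor, rose from 301, 232 and 260.4 to 953, 902 and 1114 CPM. Nfkbia, the inhibitor IκBα, rose from 213, 175 and 182 to 396, 671 and 534 CPM. Nfkbiz, the nuclear IκBζ that supports a second wave of NF-κB target genes, rose from 15.9, 17.5 and 15.7 to 47.5, 66.4 and 68.2 CPM. The groups did not overlap in any of these genes (adjusted p = 3.99e-06, 2.33e-04 and 1.77e-05). Of the 2 called differences the larger was that of Nfkbiz, which in the control went from 7.11, 7.64 and 5.83 to 216, 280.4 and 252 CPM, a difference of -3.29 ± 0.25 on the log2 scale (adjusted p = 1.27e-04). Nfkbia also differed (-1.21 ± 0.26, adjusted p = 0.0348), from a level without LPS that was already higher in the depleted cells (190.0 ± 19.9 against 90.7 ± 10.2 CPM). Rela and Bcl10 were not called, with log2 fold changes of -0.26 ± 0.18 and 0.37 ± 0.16. 

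Among 28 early response transcription factors 9 rose and 0 fell (median 0.31, against 0.82 with control siRNA). Fos rose from 356 ± 59.5 to 544 ± 75.3 CPM (adjusted p = 0.0558), Ier3 from 122 ± 78.5 to 744 ± 217 CPM (adjusted p = 0.00205) and Myc from 74.9 ± 16.2 to 238 ± 66.5 CPM (adjusted p = 0.00118). Myc started higher than in the control, and the difference of its responses was -2.30 ± 0.36 (adjusted p = 0.00853). Cebpd, a partner of NF-κB at inflammatory promoters, had 17, 18.2 and 15.3 CPM without LPS and 39, 57.7 and 49.7 CPM with LPS, and rose less than the control (1.54 against 3.41 on the log2 scale, difference adjusted p = 0.00245). Egr1 had 21.5, 19.6 and 8.63 CPM without LPS and 19.3, 7.8 and 9.48 CPM with LPS, overlapping groups, while with control siRNA it went from 30.5, 22.3 and 11.8 to 67.1, 108 and 90.0 CPM. Its difference was -2.47 ± 0.59 (adjusted p = 0.0539). The other called differences on this list were Fosl1 (-1.90 on the log2 scale), Mafk (-1.36) and, in the other direction, Bhlhe40 (0.82).

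Secreted cytokines gave some of the steepest rises. Of 23 tested, 19 rose and 0 fell in the depleted cells, with a median log2 fold change of 3.63, against 5.35 with control siRNA, where all 23 rose. Without the library that stood apart, 18 rose. Il1a and Il1b encode the interleukin-1 cytokines. Il1a had 2 reads in the 3 libraries without LPS and 161, 422 and 277 CPM with LPS, a ratio of 7546 with a 95% counting interval of 2089 to 62314. Il1b rose from 0.911, 0.167 and 0.372 CPM to 762, 1380.3 and 776 CPM (log2 fold change 10.81 ± 0.52, adjusted p = 1.32e-07). With control siRNA Il1b reached 2389, 2659 and 4202 CPM, higher than in every depleted library, and the difference of the responses was -3.31 ± 0.75 (adjusted p = 0.0413).

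Tnf, the early pro-inflammatory cytokine, rose from 98.5, 63.7 and 76.4 to 424, 1391 and 898 CPM in the depleted cells (log2 fold change 3.51 ± 0.45, adjusted p = 2.66e-04). In the control it rose from 41, 35.5 and 29.8 to 671, 1873 and 1804 CPM. The level of Tnf without LPS was higher in each depleted library than in each control library, while the levels with LPS overlapped, and the difference of the responses, -1.85 ± 0.58, was not called (adjusted p = 0.146, and called with the replicate block at 0.0475). Il6 had 0 reads in all 6 libraries without LPS. With LPS it reached 1.27, 1.33 and 2.17 CPM in the depleted cells and 24.6, 11 and 27.4 CPM in the control, so that the 3 depleted libraries lay below the 3 control libraries. With the mean of the 3 libraries with LPS set against a floor of 3 reads over the group without LPS, the rise in the depleted cells was at least 31.2-fold. Il10, an anti-inflammatory cytokine, rose from 1.2, 0.0557 and 0.893 to 8.3, 3.2 and 4.96 CPM (adjusted p = 0.0304). Il12a had 0 reads in every library, and Il12b did not have enough to be tested. Csf3, the granulocyte growth factor, had 2 reads without LPS and 161, 88.1 and 45.6 CPM with LPS, a ratio of 3234 with a 95% counting interval of 895 to 26710. The interferon-β gene Ifnb1 had 0 reads without LPS and 0.636, 5.02 and 3.66 CPM with LPS, against 4.92, 27.5 and 26 CPM with LPS in the control, and its replicates spread widely with either siRNA.

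In 8 of the 23 cytokine genes the rise was called smaller than in the control, and in 0 larger. Besides Il1b these included Il1rn, the interleukin-1 receptor antagonist, which rose from 85.7 ± 23.7 to 370.2 ± 129 CPM against 48.8 ± 7.49 to 1303 ± 733 CPM in the control (difference -2.63 ± 0.51, adjusted p = 0.0219). Il15, a growth factor for NK cells, went from 2.82 ± 0.605 to 9.78 ± 1.41 CPM, against 1.6 ± 0.544 to 40.8 ± 14 CPM (difference -2.90 ± 0.42, adjusted p = 0.00498). Il27 reached 11, 29.6 and 26.8 CPM with LPS against 87.3, 209 and 265 CPM in the control (difference adjusted p = 0.0725). Ebi3, which encodes the partner subunit of interleukin-27, was not called in the depleted cells at 10.6 ± 0.905 and 15.9 ± 1.45 CPM (log2 fold change 0.58 ± 0.21), though with the block it was (adjusted p = 0.0231). Its difference from the control was -1.38 ± 0.30 (adjusted p = 0.0348). The other called differences among cytokines were those of Lif (-3.61 on the log2 scale), Csf1 (-2.41) and Osm (-1.38). Tgfb1, a cytokine that restrains inflammation, rose from 211 ± 27.8 to 420.1 ± 26.7 CPM (adjusted p = 0.00142), and its difference from the control was not called (adjusted p = 0.979). Vegfa, chosen after its values were seen, rose from 18.1, 50.8 and 53.2 CPM to 92.8, 324 and 258 CPM in the depleted cells, a log2 fold change of 2.47 ± 0.50, against 1.23 ± 0.49 in the control, and that difference was not called (adjusted p = 0.502, with the block 0.0345).

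**Figure D2:**
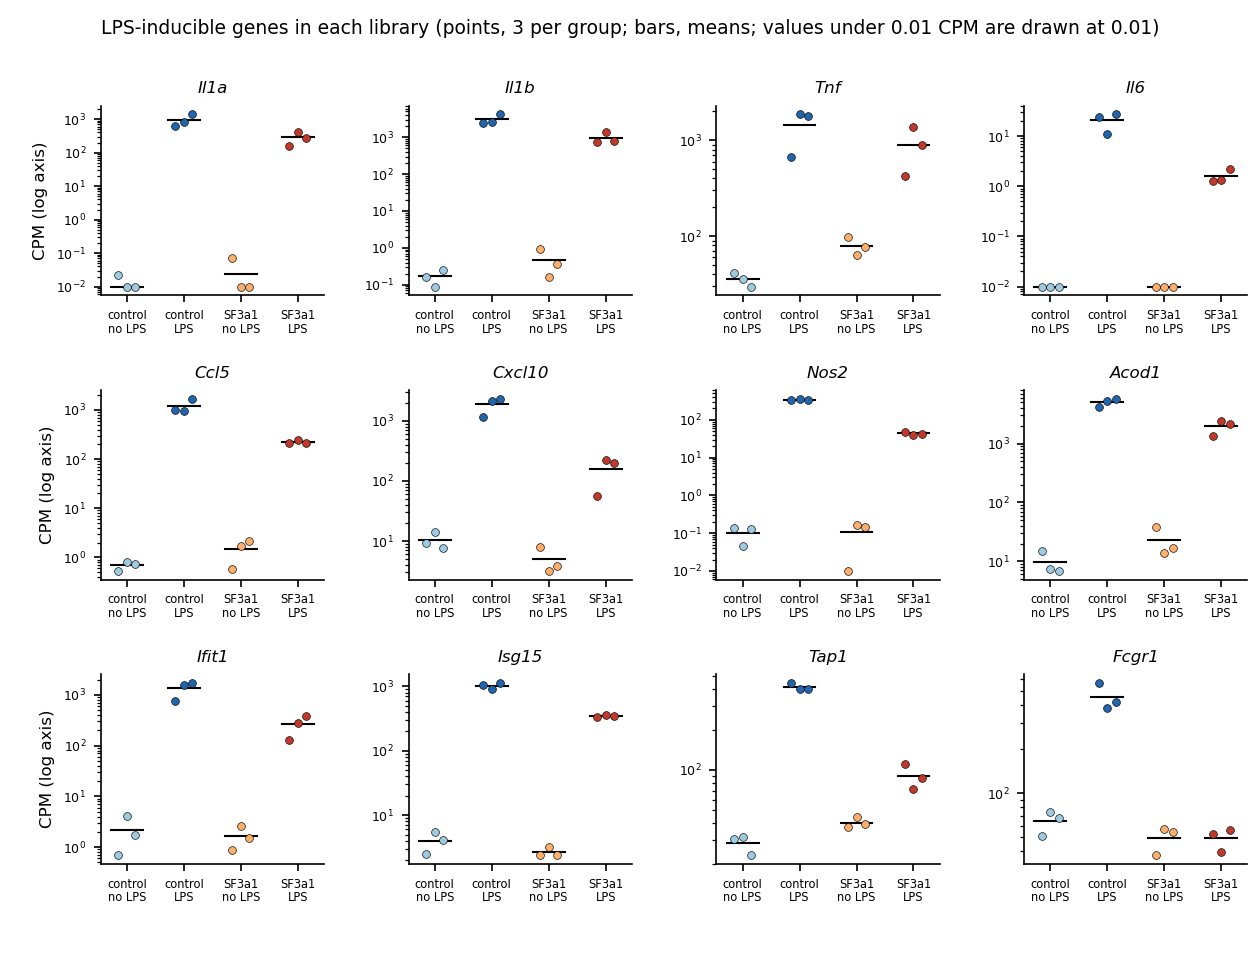
Level in CPM (vertical log axis) of 12 LPS-inducible genes in every library; points are the 3 libraries of each group, bars their means, and values under 0.01 CPM are drawn at 0.01. In all panels but that of Fcgr1 the 3 SF3a1 siRNA libraries with LPS lie above the 3 without, and in most they lie below the control libraries with LPS.

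Chemokines, the secreted attractants of leukocytes, rose nearly as a group: 15 of 16 tested were higher and 0 lower. Their median log2 fold change was 3.27, against 7.21 in the control, and 9 of the 16 differences were called, all in the direction of a smaller rise. Without the library that stood apart, 13 rose. Summed over the list, the level without LPS was 1381, 946 and 1012 CPM in the depleted cells and 743, 629 and 698 CPM in the control. With LPS it was 6992, 7864 and 6717 CPM in the depleted cells and 10576, 11830 and 16163 CPM in the control. The depleted cells thus started above the control and ended below it, with no overlap on either side.

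Ccl5, which attracts T cells, rose from 0.583, 1.67 and 2.16 to 208, 245 and 213 CPM in the depleted cells (log2 fold change 7.33 ± 0.41, adjusted p = 3.85e-07). With control siRNA it reached 1019, 976 and 1703 CPM, and the difference of the responses was -3.51 ± 0.53 (adjusted p = 0.00632). The depleted libraries with LPS had little spread and all lay below each control library. Ccl22 rose from 0.547, 0.557 and 1.34 to 208, 194 and 251 CPM, against 564, 478 and 1114 CPM with LPS in the control (difference -3.07 ± 0.64, adjusted p = 0.029). The monocyte attractant Ccl2 rose from 91.8, 34.8 and 36 to 492, 324 and 182 CPM, and in the control from 9.17, 6.75 and 6.9 to 543, 328 and 371 CPM (difference -3.15 ± 0.58, adjusted p = 0.0176). For Ccl2 each depleted library without LPS was higher than each control library, and the levels with LPS overlapped. Ccl3 (3.08 against 5.71 on the log2 scale) and Ccl4 (3.19 against 6.48), which attract monocytes and lymphocytes, were also called smaller (adjusted p = 0.00376 and 0.015). Cxcl2, an attractant of neutrophils, rose by 6.17 ± 0.65, against 9.79 ± 0.78 (difference adjusted p = 0.0517). Cxcl10 and Cxcl11 are interferon-induced attractants of T cells. Cxcl10 rose from 7.98, 3.18 and 3.87 to 56.7, 220.3 and 196 CPM, against 1175, 2183 and 2350.0 CPM with LPS in the control (difference adjusted p = 0.0827). Cxcl11 went from 1.28 ± 1.04 to 11.4 ± 3.79 CPM, against 1.1 ± 0.836 to 126 ± 79.2 CPM (difference adjusted p = 0.0584). Both ended below all control libraries with LPS. Ccl7 was the other chemokine with a called difference (-4.12 ± 0.81, adjusted p = 0.0244). Ccl9 gave log2 fold changes of 2.44 ± 0.23 and 3.31 ± 0.24, and its difference was not called (adjusted p = 0.211, with the block 0.0222). Of 28 tested cytokine and chemokine receptors 6 rose and 3 fell. Tnfrsf1b, a TNF receptor, rose from 42.9 ± 7.07 to 697 ± 49.5 CPM (adjusted p = 7.51e-06), and Csf1r, the receptor for the macrophage growth factor, fell from 3357 ± 225 to 2291 ± 279 CPM (adjusted p = 0.0278). Ccrl2, a chemerin-binding receptor, rose from 0.573 ± 0.141 to 29.7 ± 7.88 CPM and less than in the control (difference -2.52 ± 0.50, adjusted p = 0.0244).

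Interferon-stimulated genes are the antiviral program of the cell. In the depleted cells 43 of 44 tested rose and 0 fell, with a median log2 fold change of 3.67. In the control all 44 rose, with a median of 4.91, and each of the 44 estimates in the depleted cells was the smaller one. The difference was called in 15, all smaller. Without the library that stood apart, 41 rose. Isg15, a ubiquitin-like modifier, had 2.37, 3.18 and 2.38 CPM without LPS and 331, 365 and 340.3 CPM with LPS (log2 fold change 7.03 ± 0.29, adjusted p = 5.05e-08), and with control siRNA 1044, 909.7 and 1126 CPM with LPS. The 3 depleted libraries with LPS lay close together and below the control, but the difference of the responses was not called (adjusted p = 0.181, with the block 0.0514). Ifit1, which binds foreign RNA caps, rose from 0.875, 2.56 and 1.49 to 129.9, 285 and 384 CPM, against 752, 1551 and 1708 CPM with LPS in the control (difference adjusted p = 0.332, with the block 0.00872). Rsad2, the antiviral viperin, rose from 1.17 ± 0.448 to 141 ± 33.4 CPM (adjusted p = 5.67e-06), against 1055 ± 184 CPM with LPS in the control. Members with a called difference included Ifi47 (3.64 against 6.05 on the log2 scale, adjusted p of the difference = 0.00632), Trim30a (3.01 against 4.86, 0.0131) and Gbp3 (5.28 against 8.71, 0.0232). The others were Ifit2 (-2.14 as the log2 difference), Isg20 (-2.40), Oas3 (-1.74), Cmpk2 (-2.30), Herc6 (-1.74), Eif2ak2 (-1.27), Ddx58 (-1.47), Parp14 (-1.66), Gbp7 (-2.29), Igtp (-0.90), Bst2 (-1.68) and Tor3a (-1.09). Oasl1 was not among them, with 1419 ± 91.4 CPM against 2307 ± 207 CPM with LPS and a difference of -0.87 ± 0.28 (adjusted p = 0.156, with the block 0.0341). Samhd1, a nucleotide hydrolase, was the member not called, at 202, 143 and 161 CPM without LPS and 376, 162 and 259 CPM with LPS (adjusted p = 0.213, with the block 0.0085).

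The factors known to drive these genes were also measured. Of 17 interferon response factors and signalling genes 9 rose and 0 fell (median 0.63, against 1.95), and 5 differences were called, all smaller. Stat2 rose from 16.6, 15.1 and 15.7 to 88.3, 73.8 and 107 CPM, against 442, 417 and 373 CPM with LPS in the control (difference -1.40 ± 0.21, adjusted p = 0.0065). Irf7, which amplifies interferon production, rose from 25.2 ± 5.67 to 217 ± 138 CPM, against 1179 ± 495 CPM with LPS in the control (difference adjusted p = 0.0743). Irf1 gave log2 fold changes of 1.45 ± 0.32 and 3.39 ± 0.34 (difference adjusted p = 0.046). The rise of Stat3 was not called in the depleted cells (0.59 ± 0.22, adjusted p = 0.147, with the block 0.0184), against 2.10 ± 0.23 in the control (difference adjusted p = 0.029).

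Promoter sequences are shown for the 3 steepest rises whose window holds a searched motif, so each window shown has a match by choice. The windows of Il1a and Il1b, which rose more, held no match. The windows, from RefSeq on GRCm38.p6, run from 250 bases before to 50 bases after the start of the transcript and are written 5′ to 3′ on the strand of the gene. Capitals mark matches to GAAA, any 2 bases and GAAA again, the core of the interferon-stimulated response element bound by IRF factors, read on either strand. Of the 15 genes with the largest rises 11 had a window, and 5 of these held this motif while 0 held GGGA, any 2 bases and TTCC, a core of the NF-κB site. Csf3, Slc7a2, Nos2 and Ccl5 were without a window. The letters searched are 1 form of that core, so 0 matches does not show that NF-κB sites are absent. Saa3 encodes an acute phase protein, and its window is chr7:46715627-46715926 on the minus strand, with 1 match that begins 125 bases before the start. Ifit3 lies on the plus strand at chr19:34583279-34583578, with matches 156 and 122 bases before the start. Ifit1 lies on the plus strand at chr19:34640639-34640938, with matches 104 and 85 bases before the start.
Saa3: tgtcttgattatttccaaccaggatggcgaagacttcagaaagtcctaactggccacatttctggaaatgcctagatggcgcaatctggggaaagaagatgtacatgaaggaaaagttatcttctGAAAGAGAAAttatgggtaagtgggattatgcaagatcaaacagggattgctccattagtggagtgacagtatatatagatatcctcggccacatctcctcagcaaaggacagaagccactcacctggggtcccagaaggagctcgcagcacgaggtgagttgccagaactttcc
Ifit3: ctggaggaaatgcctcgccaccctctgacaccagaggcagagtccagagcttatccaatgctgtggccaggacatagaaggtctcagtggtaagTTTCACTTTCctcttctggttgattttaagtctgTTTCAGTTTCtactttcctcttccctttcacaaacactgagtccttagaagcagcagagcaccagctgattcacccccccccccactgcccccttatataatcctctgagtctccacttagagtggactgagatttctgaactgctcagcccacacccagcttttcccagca
Ifit1: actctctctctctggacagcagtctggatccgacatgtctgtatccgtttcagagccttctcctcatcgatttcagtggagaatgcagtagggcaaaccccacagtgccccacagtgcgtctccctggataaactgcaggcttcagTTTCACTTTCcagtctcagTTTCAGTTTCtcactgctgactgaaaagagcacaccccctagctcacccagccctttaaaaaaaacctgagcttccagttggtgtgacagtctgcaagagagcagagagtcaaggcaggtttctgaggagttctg
Saa3 rose from 0.328, 0 and 0.298 to 118, 28.9 and 37.4 CPM in the depleted cells, and Ifit3 from 0.0729, 0.725 and 0.223 to 50.8, 58.7 and 68.4 CPM. Across the 9214 tested genes with a window, 4.03% held the interferon element and 1.76% the NF-κB core. Among the 725 of them that were called higher in the depleted cells the shares were 11.9% and 2.76%. Among the 264 called at least 4-fold higher they were 21.6% and 5.3%. Among the 140 that rose and rose less than in the control they were 20.7% and 4.29%, and among the 464 that fell they were both 2.16%. A match describes these letters in this window and is not a measured binding site.

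MHC class I genes process and present peptides. Of 17 tested 10 rose and 0 fell (8 without the library that stood apart and 15 with the replicate block), the median log2 fold change was 0.65 against 1.60, and 8 differences were called, all smaller. Tap1, a subunit of the peptide transporter, had 37.8, 44.4 and 39.5 CPM without LPS and 111, 72.3 and 87.1 CPM with LPS. In the control it went from 30.7, 31.6 and 23.1 to 444, 401 and 403 CPM, and the difference was -2.72 ± 0.25 (adjusted p = 3.97e-04). Nlrc5, the transactivator of class I genes, went from 16.5 ± 0.842 to 29 ± 10.3 CPM, against 23.6 ± 2.6 to 208 ± 13.7 CPM (difference -2.31 ± 0.31, adjusted p = 0.00372). Tap1 overlaps Psmb9, an immunoproteasome subunit, in the annotation, so reads may be shared where strand is not used, and Psmb9 rose by 0.65 ± 0.16 on the log2 scale against 2.00 ± 0.16 (difference adjusted p = 0.00979). The others were H2-T23 (-1.63 as the log2 difference), Tap2 (-1.78), Tapbp (-1.37), Tapbpl (-1.20) and Psmb10 (-1.17). The class I genes H2-D1 and B2m were not called in the depleted cells (0.44 ± 0.19 and 0.57 ± 0.22), and H2-D1 has close relatives that may share its reads.

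Effector enzymes rose in 18 of 24 cases and fell in 1 (median 1.96, against 3.20). Nos2, the inducible nitric oxide synthase, had 5 reads in the libraries without LPS. It rose from 0, 0.167 and 0.149 to 48.3, 40.2 and 43.5 CPM (log2 fold change 8.91 ± 0.38, adjusted p = 5.05e-08), against 333, 365 and 330.2 CPM with LPS in the control. The mean with LPS was 12.8% of the control mean, with little spread, while the difference of the responses was not called (adjusted p = 0.173, and called in 3 of 20 settings). Acod1, which makes itaconate, rose from 38.1, 13.9 and 16.9 to 1338, 2457 and 2170.0 CPM, against 4244, 5202 and 5801 CPM in the control (difference -2.59 ± 0.54, adjusted p = 0.0304). Ptgs2, the inducible cyclooxygenase, is a case of a raised start: it went from 318, 216 and 275 to 1205, 1079 and 1382 CPM in the depleted cells. With control siRNA it went from 26.9, 35.8 and 26.7 to 1159, 908 and 946 CPM. The levels with LPS overlapped, and the difference of the folds, -2.90 ± 0.26 (adjusted p = 3.97e-04), came with a level without LPS that was higher in each depleted library. Gch1, Plek and Ehd1 also had called differences (-1.25, -0.98 and -1.13 on the log2 scale). Slc7a2, an arginine transporter that feeds nitric oxide synthesis, had 3 reads without LPS and 19.4, 25.9 and 36.8 CPM with LPS, a ratio of 511 with a 95% counting interval of 175 to 2482. Hdc, which makes histamine, rose from 0.26 ± 0.163 to 44.6 ± 7.67 CPM (adjusted p = 1.46e-06). Ptges, a prostaglandin synthase, and Gclm, a subunit of the glutathione-making enzyme, were chosen after their values were seen as members with the larger estimate in the depleted cells. Ptges gave 5.22 ± 0.60 against 3.41 ± 0.50, and Gclm 0.76 ± 0.20 against 0.05 ± 0.20, on the log2 scale. Neither difference was called (adjusted p = 0.328 and 0.271).

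Negative feedback genes rose in 12 of 26 cases and fell in 0 (median 1.02, against 2.12), with 7 differences called, all smaller. Socs3, an inhibitor of cytokine receptor signalling, rose from 31.6, 29.1 and 29.5 to 429, 528 and 400.5 CPM, against 1260.1, 759 and 741 CPM with LPS in the control (difference -1.74 ± 0.31, adjusted p = 0.0163). Dusp2, a phosphatase of MAP kinases, rose by 2.11 ± 0.16 against 3.75 ± 0.17 (difference adjusted p = 0.00372). Trib1, a pseudokinase, was not called in the depleted cells (58.7 ± 3.55 and 50.5 ± 15.1 CPM) and went from 21.2 ± 4.43 to 47.5 ± 11.8 CPM in the control (difference -1.38 ± 0.33, adjusted p = 0.0531). The others were Cish (-3.01), Dusp16 (-1.28), Lgals9 (-2.43) and Cd274, the ligand PD-L1 (-1.80), each as the log2 difference. Tnip1, a partner of the ubiquitin-editing A20 protein, rose from 189 ± 20.4 to 551 ± 185 CPM (adjusted p = 9.91e-04). Of 13 genes that control cytokine mRNA decay, 3 rose and 1 fell. Zfp36, which encodes tristetraprolin, went from 113, 48.5 and 57.7 to 369, 114 and 148 CPM (adjusted p = 0.0823), with a wide spread with LPS. Zc3h12a, the endonuclease regnase-1, rose by 2.34 ± 0.20 against 3.65 ± 0.21 (difference adjusted p = 0.0273).

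On the cell surface, 13 of 17 costimulatory and adhesion genes rose and 0 fell (median 1.20, against 2.74). Cd80, a ligand that costimulates T cells, was higher in each depleted library than in each control library on both sides, with 20.8, 26.3 and 18.4 CPM without LPS and 43.6, 48.4 and 41.4 CPM with LPS. In the control it went from 0.894, 1.34 and 2.04 to 27.2, 19.6 and 21.9 CPM (difference -3.01 ± 0.36, adjusted p = 0.00189). Fas, a death receptor, rose from 4.05, 5.96 and 5.51 to 39.8, 71.2 and 52.3 CPM, against 1.67, 0.447 and 1.75 to 112, 158 and 214 CPM (difference -3.52 ± 0.53, adjusted p = 0.00632). Itgal and Cd44, adhesion molecules, also differed (-1.91 and -1.06). Itgb2, a leukocyte integrin, rose from 429 ± 74.2 to 751 ± 72.3 CPM (adjusted p = 0.0315). Of 16 scavenger, lectin and Fc receptors 5 rose and 1 fell, and 4 differences were called, all smaller. Siglec1 and Msr1 gave -3.17 and -0.75, called in 13 and 7 of 20 settings. Fcgr1, the high-affinity IgG receptor, had 37.6, 56.5 and 54.2 CPM without LPS and 52.5, 39.8 and 56.1 CPM with LPS in the depleted cells. With control siRNA it rose from 51.3, 73.8 and 67.4 to 565, 382 and 421 CPM. Fcgr4 had 6.02, 2.95 and 7.96 CPM without LPS and 8.45, 5.86 and 7.99 CPM with LPS in the depleted cells, and 1.86, 1.47 and 3.15 and 36.4, 31.6 and 50.6 CPM in the control. Groups overlapped in the depleted cells for both genes, and the differences were -2.83 ± 0.31 and -3.79 ± 0.51 (adjusted p = 0.00149 and 0.00346).

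Among 12 matrix proteases and inhibitors 6 rose and 2 fell. Timp1, an inhibitor of metalloproteases, went from 0.146, 0.111 and 0.298 to 15.8, 16 and 8.42 CPM in the depleted cells. In the control it had 0 reads without LPS and 60.5, 60.5 and 57.8 CPM with LPS. The depleted libraries with LPS all lay below the control libraries (adjusted p of the difference = 0.00921). The extracellular matrix protein gene Tnc rose from 40.3, 22.1 and 16.5 to 239, 136 and 195 CPM, against 7.38, 5.23 and 3.75 to 828, 931 and 658 CPM (difference -4.34 ± 0.48, adjusted p = 0.00149). Mmp9, a gelatinase, went from 2.76 ± 0.791 to 60.3 ± 40.9 CPM, against 0.28 ± 0.0446 to 66.1 ± 44.9 CPM (difference adjusted p = 0.0542). Plaur, the urokinase receptor, also differed (-1.50). Tnc and Mmp9 started higher in the depleted cells. Col5a3, a collagen chain, and Mmp14, a membrane metalloprotease, were among the 15 largest rises in the depleted cells, from 1.26 ± 0.927 to 344 ± 134 CPM and from 0.149 ± 0.129 to 21.7 ± 6.1 CPM (adjusted p = 3.83e-06 and 7.28e-06).

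**Figure D3:**
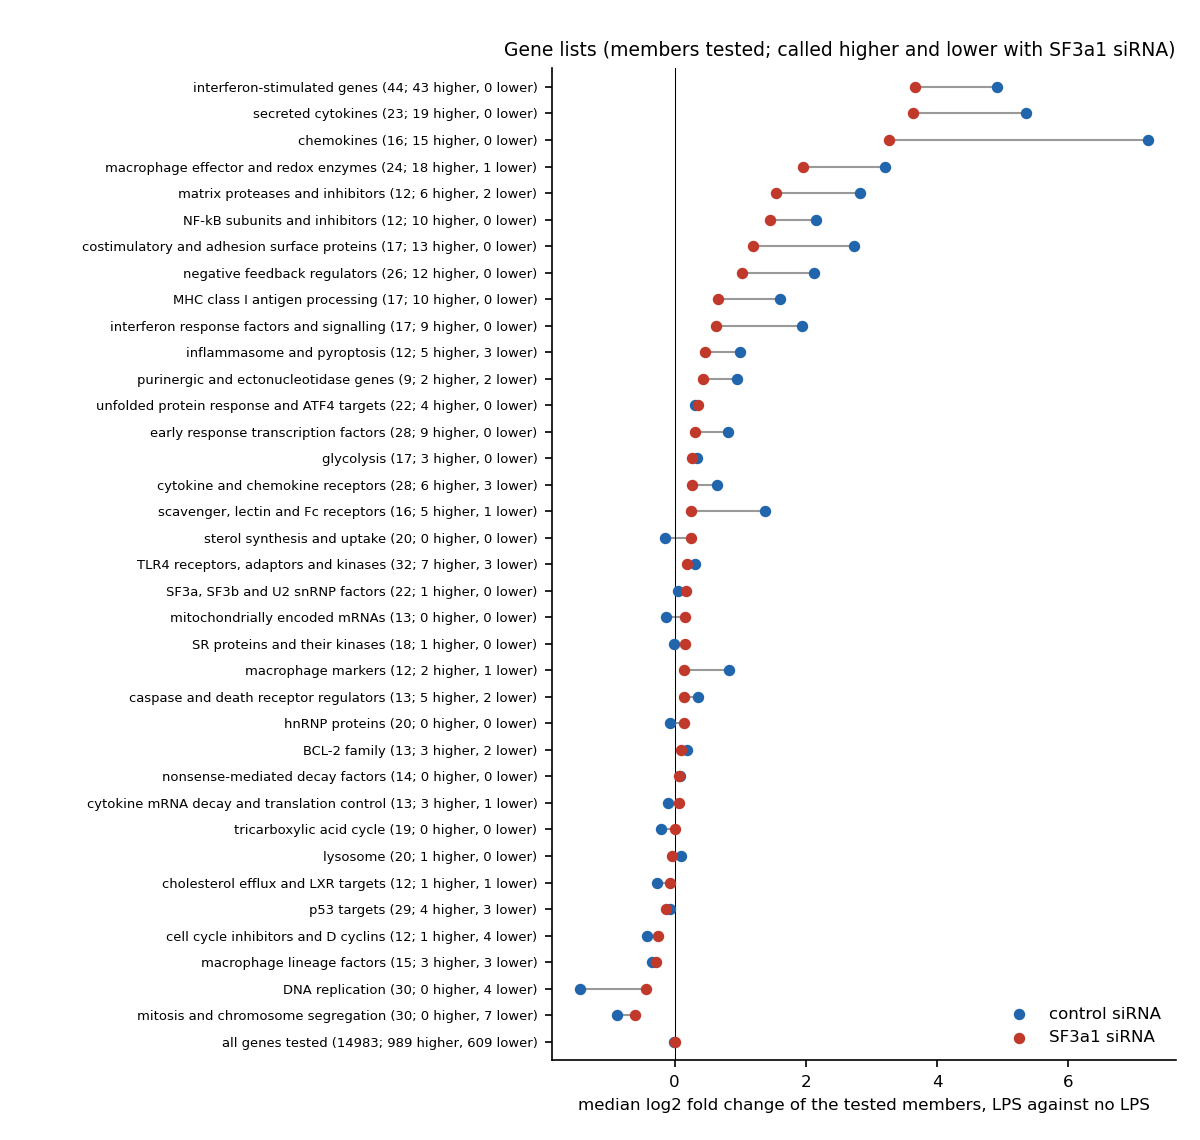
Median log2 fold change with LPS of the tested members of each gene list (horizontal axis), with SF3a1 siRNA in red and control siRNA in blue; list names give the members tested and the numbers called higher and lower with SF3a1 siRNA, and the lowest row is all genes tested. The lists of cytokines, chemokines, interferon-stimulated and MHC class I genes have the red point between 0 and the blue one, as have those for DNA replication and mitosis on the negative side.

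Beyond the lists, the responses were compared over all genes that responded to LPS on average of the siRNAs, a choice that weighs the siRNAs equally. Of 2293 genes with a called average rise, 1833 (79.9%) had the smaller response in the depleted cells, with median log2 fold changes of 0.62 and 1.14. In 539 genes that rose on average at least 4-fold, 87.2% had the smaller response, the medians were 2.79 and 4.25, and the median level with LPS was 37.4% of that in the control. The median level of these 539 genes without LPS was 117% of the control. Of 2859 genes with a called average fall, 2459 (86.0%) had the smaller response in the depleted cells, with medians of -0.45 and -0.89.

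The difference itself was called in 520 genes (3.47% of genes tested), 290 with a lower (1.94%) and 230 with a higher (1.54%) log2 fold change in the depleted cells. Of the 290, 287 had risen in the control, and of the 230, 224 had fallen in the control. The difference is computed from the control response, so the 2 calls are not independent, and the overlap without any true difference was not estimated. Which direction was the more frequent depended on the fit: with the replicate block 980 of 1756 differences were higher and 776 lower, with library totals 345 and 293, and without replicate 3 of control siRNA without LPS 92 and 200. The count was 273 without replicate 3 of SF3a1 siRNA without LPS, 284 without replicate 2 of that group, and 292 and 338 without replicates 3 and 2 of control siRNA without LPS.

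Among the 15 largest called falls were those of Nt5e and Trp53inp1. Nt5e, the ectonucleotidase CD73, fell from 19.8, 62.1 and 39.2 to 1.51, 12.9 and 5.39 CPM (log2 fold change -2.64 ± 0.86, adjusted p = 0.0934), with a wide spread. Trp53inp1, a p53-induced gene, fell from 36.1, 54.5 and 48.5 to 13.4, 5.74 and 9.53 CPM (adjusted p = 0.00307). All 3 libraries with LPS were below all 3 without in both genes. Trp53inp1 was far lower with control siRNA on both sides (1.83 ± 0.511 and 0.437 ± 0.314 CPM), with nearly the same log2 fold change (-2.27 and -2.26). Mxd4, an antagonist of Myc, fell from 77.6 ± 8.18 to 18.4 ± 5.63 CPM (adjusted p = 0.00701), and Pdcd4, an inhibitor of translation initiation, from 52.7 ± 13.7 to 14 ± 3.49 CPM (adjusted p = 7.67e-04). St6gal1, a sialyltransferase, fell from 29.5, 35.1 and 28.7 to 9.14, 6.35 and 6.06 CPM, less steeply than in the control, where it went from 72.1, 36.5 and 47.6 to 2.32, 3.18 and 3.03 CPM (difference 2.11 ± 0.37, adjusted p = 0.0134). Also among the 15 largest falls were Fam13c, Slc7a4, Ttc7, Timp2, Frmd4b, Nlrp10, Ankrd34a, Tbc1d2 and Thap7, with log2 fold changes between -2.13 and -1.75. In Timp2 the groups overlapped.

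Some genes that fell in the control were not called in the depleted cells. Kbtbd11, which encodes a Kelch domain protein, had 567, 486 and 618 CPM without LPS and 719, 586 and 1032 CPM with LPS in the depleted cells. With control siRNA it fell from 312, 244 and 316 to 67.3, 45.3 and 50.9 CPM, and the difference was 2.90 ± 0.31 (adjusted p = 0.00149). Sesn1, a stress-induced p53 target, had 97.7, 75.4 and 82 CPM without LPS and 96.7, 61.1 and 75.3 CPM with LPS in the depleted cells, and fell from 83.4, 50.9 and 76.3 to 18.8, 9.7 and 14.7 CPM in the control (difference adjusted p = 0.0122). Groups overlapped in the depleted cells in both genes and were far apart in the control. Zfpm1, a cofactor of GATA factors, gave -0.04 ± 0.22 against -2.27 ± 0.24 on the log2 scale (difference adjusted p = 0.00521). Rarb, a retinoic acid receptor, gave -0.29 ± 0.22 against -2.49 ± 0.25 (difference adjusted p = 0.0059). Tfeb, a factor for lysosome genes, gave -0.22 ± 0.20 against -2.17 ± 0.21 (difference adjusted p = 0.00521). Slc5a3, a myo-inositol carrier, Angpt2, a vascular growth factor, and 1700025G04Rik had differences of 2.33, 2.10 and 2.55. With the replicate block Slc5a3 and Angpt2 were called lower in the depleted cells as well (log2 fold changes -0.70 and -0.71), and 1700025G04Rik and Kbtbd11 higher (0.55 and 0.46). Bmf, a pro-apoptotic member of the BCL-2 family, fell in the depleted cells as well, from 15.6 ± 1.37 to 6.96 ± 0.946 CPM (adjusted p = 0.0781), by less than in the control (difference 2.22 ± 0.52, adjusted p = 0.0498).

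DNA replication genes copy the genome in S phase. In the control 29 of 30 fell with LPS, with a median log2 fold change of -1.44. In the depleted cells 4 fell and 0 rose, with a median of -0.43, and all 30 estimates were the less negative ones. The difference was called in 10, all toward a smaller fall. In the depleted cells 14 were called with the replicate block, 11 with library totals and 3 without the library that stood apart. Mcm4, a subunit of the replicative helicase, had 183, 163 and 159 CPM without LPS and 136.98, 114 and 124 CPM with LPS in the depleted cells. In the control it went from 245, 249 and 244 to 92.3, 96.5 and 65.5 CPM (difference 1.11 ± 0.22, adjusted p = 0.0232). Pcna, the sliding clamp of DNA polymerases, had 198, 168 and 159.9 CPM without LPS and 169, 156 and 130.3 CPM with LPS, and in the control 232, 222 and 234 and 101, 101 and 107 CPM (difference 0.95 ± 0.19, adjusted p = 0.0249). In Mcm4 the 3 depleted libraries with LPS were below the 3 without, which was not called (adjusted p = 0.127, with the block 0.0408). Both genes were lower in the depleted cells before LPS and higher than the control after it. Ccne2, the S phase cyclin E2, had 18.2 ± 4.49 and 13.9 ± 4.38 CPM in the depleted cells and 59.8 ± 7.33 and 10.0 ± 3.5 CPM in the control (difference 2.18 ± 0.40, adjusted p = 0.017). Mcm6 was among the 4 that fell in the depleted cells, from 222, 276 and 266 to 124, 118 and 126 CPM (adjusted p = 8.78e-04). The transcription factor E2f2 fell from 45.3 ± 4.6 to 19.3 ± 3.86 CPM, less than in the control (-1.23 against -3.02 on the log2 scale, difference adjusted p = 0.017). The other called differences were Mcm7 (1.19), Rfc3 (0.85), Rrm1 (0.82), Tk1 (1.37), Slbp (0.93) and Ccne1 (1.56), each as the log2 difference.

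Mitosis genes serve chromosome segregation. In the depleted cells 7 of 30 fell and 0 rose, with a median of -0.60, against 26 that fell in the control with a median of -0.88, and 0 of 30 differences were called by edgeR (1 at an unadjusted p under 0.05, and 0 by DESeq2). Only 1 of the 30 was called without the library that stood apart, while 18 were called with the replicate block and 18 with library totals. The summed level of the list was already far lower before LPS, at 2344, 1839 and 1685 CPM in the depleted cells against 5528, 6730 and 6190 CPM in the control. With LPS it was 1417, 1200 and 1354 CPM, against 2186, 4089 and 3962 CPM. Mki67, the proliferation marker, went from 217, 158 and 134 to 75.6, 36.5 and 92.8 CPM in the depleted cells (adjusted p = 0.0383). Cdkn1a, the cell cycle inhibitor p21, rose from 1389, 1377 and 1222 to 1943, 2018 and 1779 CPM in the depleted cells and from 226, 247 and 209 to 607, 785 and 723 CPM in the control. Its level was higher in every depleted library than in every control library, while its LPS response was the smaller (difference -1.11 ± 0.19, adjusted p = 0.0134). Of 12 tested cell cycle inhibitors and D cyclins 1 rose and 4 fell, and the other called differences were Ccnd2 (-3.80), Btg2 (-1.15), Cdkn2c (1.16) and Rbl2 (1.20). Of 29 tested p53 targets 4 rose and 3 fell, with a median of -0.13, and 6 had called differences, 4 lower and 2 higher. These were Mdm2 (-0.97) and Ppm1d (0.76), besides Cdkn1a, Fas, Btg2 and Sesn1.

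**Figure D4:**
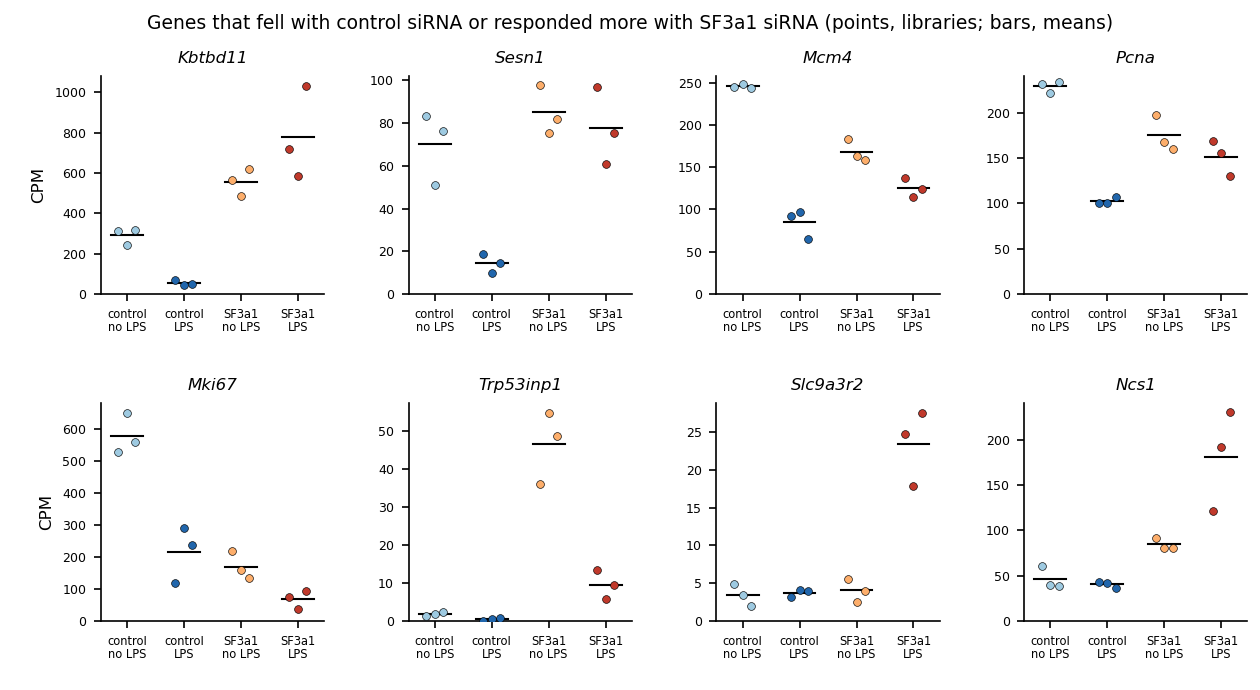
Level in CPM (vertical axis from 0) of 8 genes in every library; points are the 3 libraries of each group and bars their means. Kbtbd11, Sesn1, Mcm4 and Pcna fell with control siRNA and had a called difference, Mki67 and Trp53inp1 fell with both, and Slc9a3r2 and Ncs1 rose with SF3a1 siRNA, where the control groups overlapped.

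A larger response in the depleted cells was rarely called. Of the genes with a called average response, 5 had a called difference toward a larger one. Among genes with a symbol and a called response in the depleted cells, 13 had a called difference and the larger absolute log2 fold change there. Genes whose larger response was itself not called are not in that count. These were chosen by their values. Slc9a3r2, a scaffold protein of membrane transporters, had 5.54, 2.56 and 4.02 CPM without LPS and 24.8, 17.9 and 27.6 CPM with LPS in the depleted cells. Under control siRNA it had 4.84, 3.4 and 2.04 and 3.21, 4.05 and 3.93 CPM (difference 2.42 ± 0.47, adjusted p = 0.0232). Ncs1, a calcium sensor, rose from 91.8, 80.9 and 81 to 122, 192 and 231 CPM, against 61.1, 39.7 and 38.1 and 42.9, 42.2 and 36 CPM (adjusted p = 0.0651). Both were above every control library after LPS. Sept6, a septin, rose in the depleted cells (0.70 ± 0.20 on the log2 scale) and fell in the control (-0.67 ± 0.20, difference adjusted p = 0.0283). Arntl, the clock factor BMAL1, fell from 46.8, 41.3 and 45.9 to 27.2, 29.9 and 26.3 CPM in the depleted cells, against 35.2, 31.5 and 36.7 and 35.8, 43.1 and 47.7 CPM in the control (difference -0.98 ± 0.20, adjusted p = 0.0285).

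Housekeeping and RNA processing lists were also counted. Over all genes tested 6.6% rose and 4.06% fell in the depleted cells. Near that share of rises were the lists of SF3a, SF3b and U2 snRNP genes (4.55%), SR proteins and their kinases (5.56%) and lysosome genes (5%). The median log2 fold change in the depleted cells was 0.26 for glycolysis, 0.25 for sterol synthesis and 0.35 for the unfolded protein response, against 0.01 for all genes tested. Of 22 SF3a, SF3b and U2 snRNP genes 1 rose and 0 fell (Sf3b4, from 153, 146 and 155 to 249, 241 and 215 CPM, adjusted p = 0.0156), and of 18 SR proteins and their kinases 1 rose (Clk4, adjusted p = 0.0817, called in 10 of 22 settings). None of 20 hnRNP proteins, 14 nonsense-mediated decay factors, 20 sterol synthesis genes, 19 genes of the tricarboxylic acid cycle or 13 mitochondrially encoded mRNAs was called by edgeR or by DESeq2, and at an unadjusted p under 0.05 edgeR had 1 nonsense-mediated decay factor and 1 gene of the cycle. With the replicate block 3 hnRNP proteins, 2 decay factors and 3 sterol synthesis genes were called higher and 1 sterol synthesis gene lower. In glycolysis 3 of 17 rose, among them the glucose carrier Slc2a1, from 251, 268 and 231 to 488, 612 and 511 CPM (log2 fold change 1.10 ± 0.15, adjusted p = 4.21e-04). Of 22 unfolded protein response and ATF4 target genes 4 rose. Slc7a11, the cystine transporter, rose from 28.5, 20.7 and 21.4 to 193, 187 and 258 CPM, and by 3.17 ± 0.18 against 3.80 ± 0.18 in the control (difference adjusted p = 0.236). Atf4 gave 0.92 ± 0.21 and 0.91 ± 0.21. Of 20 lysosome genes 1 rose and 0 fell, of 12 inflammasome genes 5 rose and 3 fell, of 15 macrophage lineage factors 3 rose and 3 fell, and of 12 cholesterol efflux genes 1 rose and 1 fell. Of 9 purinergic and ectonucleotidase genes 2 rose and 2 fell, and of 13 caspase and death receptor regulators 5 rose and 2 fell. Called differences in these were Casp4 (-1.83), Adora2b (-1.78), Cflar (-1.39) and, in the other direction, Tfeb (1.95). The survival genes of the BCL-2 family Mcl1 and Bcl2l1 rose to 603 ± 28.2 and 222 ± 35.4 CPM (adjusted p = 0.0157 and 1.26e-04), the latter by less than in the control (difference -1.64 ± 0.22, adjusted p = 0.00372).

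Few changes of exon usage with LPS were called in the depleted cells. Counts on exon bins (exons cut wherever annotated transcripts differ) were tested in 10609 units, each 1 gene or several overlapping ones, and 39 bins in 11 units were called, 32 higher and 7 lower. In the control 49 units were called. The difference between the siRNAs was called in 0 bins by edgeR, with 1569 genes holding a bin at an unadjusted p under 0.05, and in 2 bins of 1 gene with the replicate block. With the block 35 units were called in the depleted cells, and without replicate 2 of SF3a1 siRNA without LPS 7. In simulated data of this comparison 30.6% of called units were false, and 2% of 2-fold and 57% of 4-fold changes were found. Single calls are thus uncertain, and the small number called does not show that few genes changed. Only 2 of the 3 control libraries with LPS were analysed here for exon bins.

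Of the 11 units, 4 hold several overlapping genes, among them Il4i1, Parp10 and Trex1, so that a change in the level of 1 gene and in the usage of its exons cannot be told apart there. The other 7 are single genes. Bin 9 of Daxx, a transcriptional corepressor, took 0, 0.0996 and 0.0626% of the gene's exon counts without LPS and 1.23, 2.22 and 3.24% with LPS (adjusted p = 5.58e-16). Bin 32 of Dglucy, which encodes D-glutamate cyclase, went from 1.32, 0.287 and 0.434% to 11.8, 7.15 and 8.34% (adjusted p = 2.39e-14), and 4 of its 32 bins were called. Bin 5 of Sept9, a septin, went from 1.75, 1.25 and 1.52% to 5.33, 4.23 and 4.97% (adjusted p = 0.0134). In all 3 the groups did not overlap, and the usage rose in the control as well, to 2.83 and 4.8% for Daxx, 8.89 and 7.25% for Dglucy and 2.89 and 2.33% for Sept9. Bin 21 of Stat5b, a signal transducer, went from 0.733, 1.13 and 0.35% to 0% in all 3 libraries with LPS (adjusted p = 0.0796), on 22 reads in the libraries without LPS. In the control it went the same way, from 0.626, 1.64 and 0.752% to 0 and 0.531%, and was not called. Bin 44 of Nbas rested on replicate 1, with 18.2% of exon counts with LPS against 2.87 and 2.68% in the other replicates. The remaining calls were bin 3 of A530032D15Rik, which has close relatives that may share its reads, and bin 1 of Sass6.

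**Figure D5:**
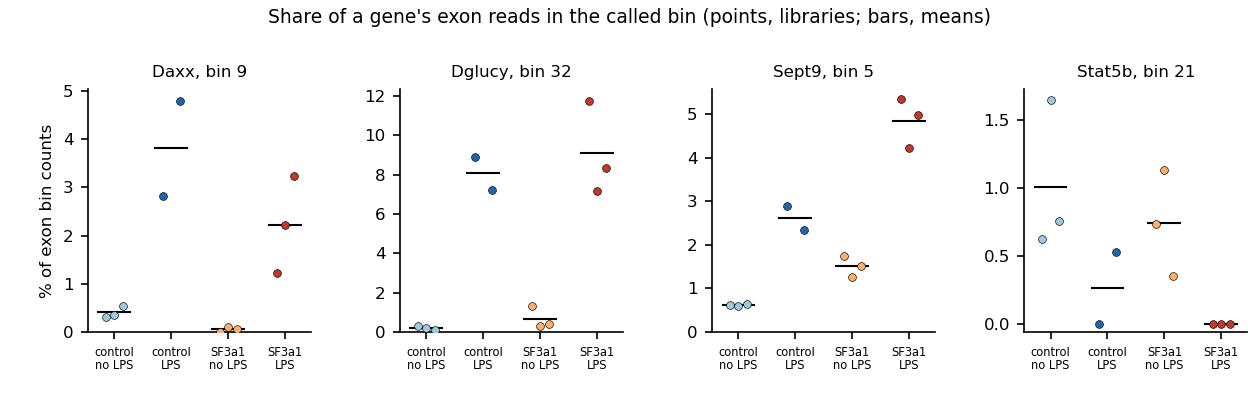
Share of a gene's exon bin counts that fell in the called bin, in percent (vertical axis), for 4 genes; points are libraries (3 per group, 2 for control siRNA with LPS) and bars their means. The bins of Daxx, Dglucy and Sept9 took a larger share with LPS with either siRNA, and that of Stat5b took none in the 3 depleted libraries with LPS.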

How the data were processed

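Poly-A RNA of RAW264.7 cells was sequenced on an Ion Proton as single-end reads. Per the study methods and the submitters' processing notes, the authors mapped reads of at least 30 bases uniquely to mm10 with GSNAP and deposited whole-number counts per gene and per exon bin made with HTSeq. Whether counting used strand is not given in the sources used here, and 92 of 273 named genes overlap another gene. Replicate 1 joins 2 sequencing runs.

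From the deposited gene counts, the edgeR 4.0.16 quasi-likelihood test (R 4.3.3, limma 3.58.1) was fitted over all 12 libraries with 1 mean per group, TMM scaling and the default expression filter, which kept 14983 of 38215 genes. P-values were adjusted after Benjamini and Hochberg and called up to 0.1, and the difference is the interaction of siRNA and LPS. Standard errors are the log2 fold change divided by the root of the F statistic. Exon bins were tested with diffSpliceDGE over 11 libraries. Counts of single libraries limit precision, and counting intervals cover counting error only. Reads that matched no gene feature were left out. Counts of 38215 genes were simulated, 200 of them changed 2- or 4-fold, with no effect shared by same-numbered replicates. Of the changed genes 69% were recovered for the response of the depleted cells and 42% for the difference, with 9.80% and 6.67% of calls false. Of 2-fold changes 51% and 17% were recovered, so a difference that was not called may still be present. Same-numbered samples correlated in their deviations at 0.143 to 0.600 over 18 pairs, against -0.523 to 0.345 for other numbers, and the pairing rests on these values.

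Genes named are the 15 largest called rises and falls of at least 10 CPM that moved alike in 3 pairs, the 10 largest differences each way, per list the most abundant called and uncalled members and each member with a called difference, and the study's own genes. Some genes that this rule names are not reported here. Members and lists were chosen with earlier results of these data known. Alternatives were median-of-ratios scaling, library totals, no filter, DESeq2 1.42.0, limma-voom, a replicate block, the SF3a1 siRNA libraries alone, leaving out each library and, added after seeing the data, replicates 2 and 3 only. Columns of samples not mapped numbered 0.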

Additional observations from a re-analysis of the deposited data

Results flagged for a closer look

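The LPS response differed between the siRNAs, by the test of the difference itself, in 520 genes. The genes named above that are among them are given here, each under the first list that holds it, with the log2 fold change in the depleted cells minus that in the control, so that a negative value in a gene induced by LPS is a smaller rise. The cause of these differences was not tested. For Timp1 (-7.24), with 0 reads in the control without LPS, the fitted value depends on the prior count and is not a bound.

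In the list of secreted cytokines, the log2 difference was called for Il1b (-3.31), Il27 (-3.70), Ebi3 (-1.38), Il1rn (-2.63), Il15 (-2.90), Lif (-3.61), Osm (-1.38) and Csf1 (-2.41). Among chemokines it was called for Ccl2 (-3.15), Ccl3 (-2.63), Ccl4 (-3.30), Ccl5 (-3.51), Ccl7 (-4.12), Ccl22 (-3.07), Cxcl2 (-3.62), Cxcl10 (-2.57) and Cxcl11 (-3.91). For cytokine and chemokine receptors the called differences were those of Ccrl2 (-2.52). Called among TLR4 receptors, adaptors and kinases were Tlr3 (-2.79), Ticam2 (1.06) and Irak2 (-0.85). The list of NF-κB subunits and inhibitors gave Nfkbia (-1.21) and Nfkbiz (-3.29). Of negative feedback regulators, those with a called difference were Socs3 (-1.74), Cish (-3.01), Dusp2 (-1.64), Dusp16 (-1.28), Trib1 (-1.38), Cd274 (-1.80) and Lgals9 (-2.43). In the list of early response transcription factors, the log2 difference was called for Fosl1 (-1.90), Egr1 (-2.47), Mafk (-1.36), Bhlhe40 (0.82), Cebpd (-1.87) and Myc (-2.30). Among interferon response factors and signalling those called included Irf1 (-1.94), Irf7 (-2.30), Stat2 (-1.40) and Stat3 (-1.50). For interferon-stimulated genes the called differences were those of Ifit2 (-2.14), Isg20 (-2.40), Oas3 (-1.74), Cmpk2 (-2.30), Herc6 (-1.74), Eif2ak2 (-1.27), Ddx58 (-1.47), Trim30a (-1.84), Parp14 (-1.66), Gbp3 (-3.43), Gbp7 (-2.29), Igtp (-0.90), Ifi47 (-2.40), Bst2 (-1.68) and Tor3a (-1.09). Called among MHC class I antigen processing were H2-T23 (-1.63), Tap1 (-2.72), Tap2 (-1.78), Tapbp (-1.37), Tapbpl (-1.20), Psmb9 (-1.35), Psmb10 (-1.17) and Nlrc5 (-2.31). The list of cytokine mRNA decay and translation control gave Zc3h12a (-1.31).

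Of macrophage effector and redox enzymes, those with a called difference were Ptgs2 (-2.90), Acod1 (-2.59), Gch1 (-1.25), Plek (-0.98) and Ehd1 (-1.13). In the list of inflammasome and pyroptosis, the log2 difference was called for Casp4 (-1.83). Among costimulatory and adhesion surface proteins it was called for Cd80 (-3.01), Itgal (-1.91), Cd44 (-1.06) and Fas (-3.52). For matrix proteases and inhibitors the called differences were those of Mmp9 (-3.48), Plaur (-1.50) and Timp1, given above. Called among purinergic and ectonucleotidase genes were Adora2b (-1.78). The list of scavenger, lectin and Fc receptors gave Msr1 (-0.75), Fcgr1 (-2.83), Fcgr4 (-3.79) and Siglec1 (-3.17). Of macrophage lineage factors, those with a called difference were Tfeb (1.95). In the list of DNA replication, the log2 difference was called for Mcm4 (1.11), Mcm7 (1.19), Pcna (0.95), Rfc3 (0.85), Rrm1 (0.82), Tk1 (1.37), Slbp (0.93), Ccne1 (1.56), Ccne2 (2.18) and E2f2 (1.79). Among cell cycle inhibitors and D cyclins it was called for Ccnd2 (-3.80), Cdkn1a (-1.11), Cdkn2c (1.16), Rbl2 (1.20) and Btg2 (-1.15). For p53 targets the called differences were those of Mdm2 (-0.97), Sesn1 (2.14) and Ppm1d (0.76). Called among BCL-2 family were Bcl2l1 (-1.64) and Bmf (2.22). The list of caspase and death receptor regulators gave Cflar (-1.39). Outside the lists it was called for 1700025G04Rik (2.55), Angpt2 (2.10), Arntl (-0.98), Kbtbd11 (2.90), Ncs1 (1.30), Rarb (2.21), Sept6 (1.37), Slc5a3 (2.33), Slc9a3r2 (2.42), St6gal1 (2.11), Tnc (-4.34) and Zfpm1 (2.23).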

How the results depend on the processing

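Among the 279 genes run through the settings no value called in the fit above changed sign. Some estimates not called there took either sign, among genes named above those of Sf3a1, Rab7b, Zfpm1, Sesn1, Fcgr1, Lyz2 and Pdgfrb. For the difference, such genes included Tgfb1, Rela, Pdcd4 and Trp53inp1, the last with log2 differences from -1.02 to 0.77. With library totals 40.1% of called genes were higher in place of 61.9%. Same-numbered replicates deviated together, and with the replicate block the LPS response of the depleted cells was called in 3115 genes in place of 1598, the difference in 1756 in place of 520 and exon usage in 35 units in place of 11. With the SF3a1 siRNA libraries alone and the replicate block, 3472 genes and 385 genes of the lists were called, in place of 252 list genes. The difference was called in 930 genes with no filter on low counts, in 966 with DESeq2, and in 1012 with replicates 2 and 3 of each group, a choice made after seeing the data. Leaving out 1 library at a time gave 1050 to 2005 genes for the response and 273 to 711 for the difference. For exon usage, where the 6 SF3a1 siRNA libraries alone were left out in turn, it gave 7 to 11 units. The cause of these shifts was not tested. Genes named above whose LPS response in the depleted cells was called with the block and not without it included Ccnd2, Ebi3, Stat3, Mcm4, Mcm7, Rrm1, Samhd1, Bcl10, Irak1, Tlr4, Ticam2, B2m, H2-D1, Angpt2, Kbtbd11, Slc5a3 and 1700025G04Rik. Of the genes named, those with a difference called with the block and not without it included, besides those given with their values above, Mmp14, Ier3, Col5a3, Il10, Tnip1, Rsad2, Pdgfrb, Csf1r, Mcm6, Samhd1, Nfkb1, Tnfrsf1b, Slc2a1, Nt5e, Fam13c, Zfp36, Nlrp10 and H2-D1. Of 116 named genes with a called difference, all 116 were kept with the block and with DESeq2, 98 with limma-voom, and 78 to 108 when 1 library was left out, the fewest without replicate 3 of control siRNA without LPS. Some were lost in many settings: of 20, the difference was called in 7 for Msr1, 8 for Tk1, 9 for Btg2 and 10 for Ccnd2, Ppm1d and Mcm7. Depth limits genes with few reads without LPS, such as Nos2, whose fitted fold changes are imprecise.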
